A study of Mus musculus with 12 samples.

Results

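Before any doxycycline was given, the experimental and the control immortalized mouse embryonic fibroblast (iMEF) line already differed in DNA methylation. This was the case at a limited set of promoters and at several Hox genes, with 1 library per line. Of promoters with enough cytosines in all 12 libraries, 3.73% differed by over 0.2. That share lay inside the range between the control day 0 library and later control libraries (1.94% to 4.95%). Of the Hox promoters past 0.2, only Hoxa6 also passed in the fit of days 5 to 20 described below. Hoxa2 could not be fitted. Single cytosines differed most often in gene-poor sequence with few listed cytosines. How far libraries of 1 line vary in such sequence was not tested. The comparison takes 2 of the 12 reduced representation bisulfite sequencing (RRBS) libraries, namely the day 0 library of each line, and every autosomal cytosine that both of them list, which came to 1239576 cytosines. The experimental line carries R26M2rtTA/+;TetOcre;Sdhcfl/fl and the control line R26M2rtTA/+;TetOcre;Sdhcfl/wt. Both lines therefore carry the reverse tetracycline transactivator, the tetracycline-inducible Cre and at least 1 floxed Sdhc allele, and both were grown in low-glucose DMEM with serum. At day 0 Cre had not been induced, so the label alone places both lines before Sdhc exon 4 deletion. The other 10 libraries are days 5, 9, 12, 16 and 20 of each line on doxycycline at 1 microgram/mL. Each genotype is represented by a single line, so whatever separates the cultures for other reasons than the Sdhc genotype cannot be told apart from it, and the libraries of 1 line are time points rather than separately derived lines.

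DNA methyltransferases add a methyl group to cytosines in CpG dinucleotides, and TET dioxygenases oxidise it on the way to its removal. CpG-rich promoters are mostly unmethylated in somatic cells, while gene bodies and intergenic sequence are mostly methylated. Succinate dehydrogenase, of which SDHC is a membrane subunit, consumes succinate, and succinate competes with 2-oxoglutarate in TET enzymes, which is why methylation was followed in these lines after Sdhc loss. RRBS reads fragments cut at CpG-containing restriction sites after bisulfite conversion and so favours CpG-rich DNA. The deposited value is the percent of reads called methylated at a cytosine, given here as a beta value between 0 and 1. No read counts come with it, and the depth is therefore unknown. With 1 library per line there is no test at day 0, and the day 0 differences are given as values.

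The experimental day 0 library listed 1666815 cytosines and the control day 0 library 1394408, against a range of 932307 (control day 12, the fewest) to 1716381 in the later libraries. The sex chromosomes, which are outside the autosomal comparison, separated the lines in every library. At day 0 the experimental library listed 1553 cytosines of chromosome Y and the control library 166, and on later days the counts were 1229 to 1622 and 171 to 204. Over 342 protein-coding promoters of chromosome X with at least 5 cytosines, the median beta value at day 0 was 0.0153 in the experimental and 0.374 in the control line. A beta value between 0.2 and 0.8 was found at 53 of these promoters (15.5%) in the experimental and at 259 (75.7%) in the control line. As background, an inactive X chromosome carries methylated CpG-rich promoters beside the unmethylated copy on the active one. The labels give no sex for either line, and the part of this difference in the autosomal results was not tested.

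**Figure D1:**
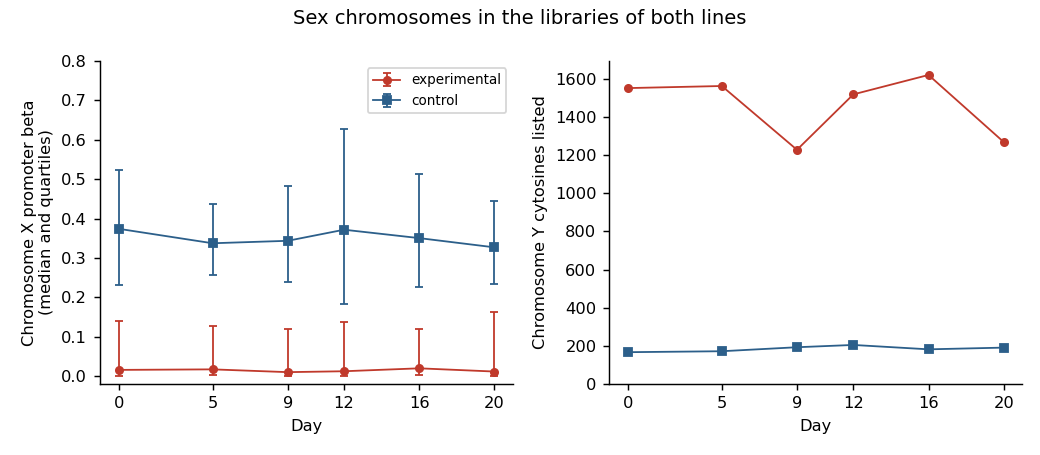
Left, median beta value (with quartiles as bars) of 342 protein-coding chromosome X promoters by day in the experimental (red circles) and control (blue squares) line; right, number of chromosome Y cytosines listed in each library. The lines were separate at day 0, with medians of 0.0153 and 0.374, and at every later day.

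To show what was measured at single promoters, the 250 bases before the start of 4 genes are printed 5′ to 3′ on the gene's strand, from RefSeq (GRCm38.p6, the assembly of mm10). They were picked after their values were seen, 3 because the lines differed there at day 0 and later, and Igf2r because it differed at day 0 but not later. CpGs with a cytosine listed in both day 0 libraries are in capitals. The Hoxa6 stretch (chr6:52208673-52208922, minus strand) holds 24 CpGs, 14 of them measured. The Hoxd4 stretch (chr2:74721728-74721977, plus strand) holds 3 CpGs, all measured. That of Igf2r (chr17:12769707-12769956, minus strand) holds 27, of which 20 were measured, and that of the lncRNA gene Gm3134 (chr8:89040993-89041242, plus strand) holds 22, of which 4 were measured.
Hoxa6: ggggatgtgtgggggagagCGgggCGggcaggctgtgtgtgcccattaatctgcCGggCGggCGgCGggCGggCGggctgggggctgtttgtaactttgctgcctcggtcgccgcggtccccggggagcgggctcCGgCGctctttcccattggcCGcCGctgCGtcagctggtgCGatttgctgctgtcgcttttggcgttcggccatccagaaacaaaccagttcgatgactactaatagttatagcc
Hoxd4: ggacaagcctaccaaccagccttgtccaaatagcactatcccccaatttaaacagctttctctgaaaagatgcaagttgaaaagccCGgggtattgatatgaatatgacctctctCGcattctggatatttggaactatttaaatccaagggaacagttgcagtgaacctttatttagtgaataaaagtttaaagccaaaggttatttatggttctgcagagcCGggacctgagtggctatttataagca
Igf2r: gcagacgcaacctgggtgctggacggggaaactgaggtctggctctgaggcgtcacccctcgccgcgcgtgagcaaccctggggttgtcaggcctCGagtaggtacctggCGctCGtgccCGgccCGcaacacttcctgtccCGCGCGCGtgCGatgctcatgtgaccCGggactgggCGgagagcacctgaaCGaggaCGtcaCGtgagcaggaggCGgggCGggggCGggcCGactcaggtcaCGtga
Gm3134: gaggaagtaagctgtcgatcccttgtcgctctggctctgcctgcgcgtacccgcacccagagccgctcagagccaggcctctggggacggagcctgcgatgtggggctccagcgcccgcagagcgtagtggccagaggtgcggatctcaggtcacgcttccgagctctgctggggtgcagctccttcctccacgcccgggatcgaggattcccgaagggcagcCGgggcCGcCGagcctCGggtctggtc
Within the Hoxa6 stretch the mean beta value at day 0 was 0.848 in the experimental and 0.509 in the control line, and on days 5 to 20 it was 0.776 to 0.964 against 0.0882 to 0.5. At day 0, 9 of its 17 cytosines were higher in the experimental and 5 in the control line. Within the Hoxd4 stretch the values were 0.577 and 0.144 at day 0, and 0.512 to 0.697 against 0 to 0.246 later. The Gm3134 stretch ran the other way, with 0.05 and 0.75 at day 0 and 0 to 0.117 against 0.5 to 0.708 later. In the Igf2r stretch the day 0 values were 0.432 and 0.691, and the later ranges, 0.308 to 0.502 and 0.155 to 0.668, overlapped.

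Over all 1239576 autosomal cytosines the lines had nearly the same mean methylation, 0.414 in the experimental and 0.407 in the control line, a difference of 0.00682. Single cytosines differed far more than the means, by 0.146 on average without regard to sign, although 49.4% had equal values in both libraries. A difference above 0.2 was seen at 25.5% of cytosines, with 164530 (13.3%) higher in the experimental and 151635 (12.2%) higher in the control line. Opposite extremes were rarer, with 15204 cytosines at 0 in the control and 1 in the experimental line and 12651 the other way. How far single values vary within a library can be read from CpGs with the cytosines of both strands listed. Over 133377 such CpGs the 2 cytosines differed by 0.101 on average within the experimental and 0.129 within the control library. Where the first cytosine of a CpG was higher in the experimental line by over 0.2, its partner was so too in 31.2% of cases, against 11.2% over all pairs. In the other direction the shares were 28.3% and 10.2%.

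Differences were least frequent in promoters and most frequent far from genes. In promoters, taken from 1500 bp before to 500 bp after a RefSeq gene start, the mean beta values were 0.101 and 0.0959 (experimental and control), and 11.5% of 402381 cytosines differed by over 0.2. In gene bodies the means were 0.535 and 0.527, and 29.1% of 608418 cytosines differed. Intergenic cytosines within 50 kb of a start had means of 0.637 and 0.628 with 39.5% differing, and those farther away had 0.654 and 0.648 with 43.1% differing. The experimental mean was the higher in all 4 compartments, and on all 19 autosomes, from 0.00165 on chromosome 18 to 0.011 on chromosome 4. The autosomes were read from the same libraries, so their shared sign is not independent evidence. Over gene body cytosines listed in all 12 libraries, the day 0 means were 0.5593 and 0.5525 (experimental and control). On days 5 to 20 the means were 0.5526 to 0.5667 in the experimental and 0.5442 to 0.5506 in the control line. The experimental range was wider than the day 0 difference, although the later ranges did not overlap. The chromosomes with the largest differences were 4, 13 (0.0097) and 16 (0.00861).

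The number of listed cytosines and gene density ordered the differences in the same way. Listed cytosines also depend on RRBS coverage, so their number is not CpG density itself. In 1 kb windows with 1 to 4 listed cytosines, 38.7% of cytosines differed by over 0.2, and in windows with 40 or more only 9.0% did, where the mean beta values were 0.0548 and 0.0519. In 1 Mb bins with at most 2 protein-coding genes 35.3% of cytosines differed, against 22.4% in bins with 20 or more. The level of methylation moved with these classes, from 0.706 and 0.697 in the sparsest windows to the low values of the densest, and its part in the shares was not tested. The shares by class were not taken between libraries of 1 line, so variation between libraries cannot be told apart in them.

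**Figure D2:**
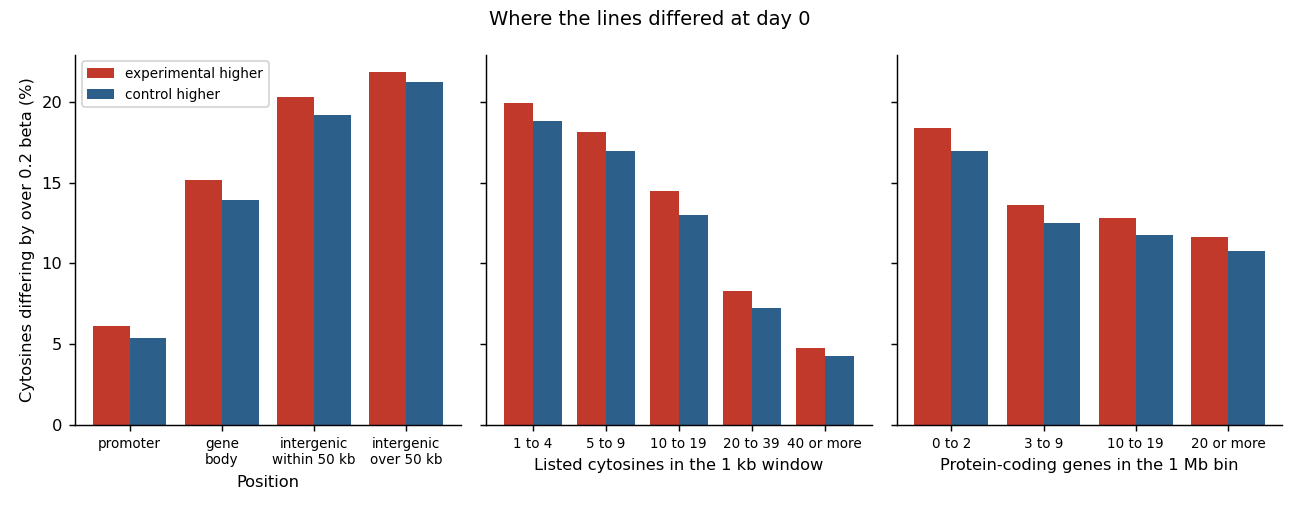
Percent of autosomal cytosines whose beta value at day 0 was higher by over 0.2 in the experimental (red) or the control line (blue), by position, by the number of listed cytosines in the 1 kb window and by the number of protein-coding genes in the 1 Mb bin. The share for both directions together fell from 43.1% far from genes to 11.5% in promoters.

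A few broad regions stood apart. Among 1619 bins of 1 Mb with at least 200 cytosines, the day 0 difference had an SD of 0.0202, and 48 bins were higher by over 0.05 in the experimental line against 5 in the control line. The highest bin lay on chromosome 2 (chr2:148000000-148999999) and holds Foxa2, an endoderm transcription factor, and Thbd, thrombomodulin, with 0.453 in the experimental and 0.335 in the control line over 462 cytosines. On days 5 to 20 this bin was at 0.417 to 0.476 in the experimental line and 0.296 to 0.334 in the control line. It was followed by the Sult2a sulfotransferase region of chromosome 7 (chr7:14000000-14999999), at 0.566 against 0.463, which later barely kept apart at 0.499 to 0.646 against 0.361 to 0.498. A chromosome 3 bin with the guanylate cyclase genes Gucy1a1 and Gucy1b1 (chr3:82000000-82999999) was at 0.487 against 0.39 and overlapped later, at 0.459 to 0.506 against 0.342 to 0.477.

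In the control direction the bin of Meis1, a homeobox cofactor of Hox proteins, on chromosome 11 (chr11:18000000-18999999) was the farthest out, at 0.39 in the experimental and 0.523 in the control line over 213 cytosines. On later days the experimental libraries lay between 0.344 and 0.451 and the control libraries between 0.493 and 0.526, without overlap. The bin of Gata6, a GATA transcription factor of endoderm and heart, on chromosome 18 (chr18:11000000-11999999) followed, at 0.325 against 0.449 over 619 cytosines, and stayed separate with 0.313 to 0.336 against 0.405 to 0.436. The promoters of both genes were low in both lines at day 0, with 0.0603 and 0.021 at Meis1 and 0.0136 and 0.0515 at Gata6 (experimental and control), so these differences lay outside them. The third bin, on chromosome 13 (chr13:65000000-65999999), was at 0.413 against 0.489 and overlapped later, at 0.383 to 0.432 against 0.407 to 0.473.

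At a finer scale, 26402 windows of 1 kb held at least 10 cytosines, of which 819 (3.1%) were higher in the experimental and 568 (2.15%) higher in the control line by over 0.2. The share higher in the experimental line was 7.1% of intergenic, 4.12% of gene body and 1.55% of promoter windows. The 3 intergenic windows with the largest difference in each direction are given, a choice made outside the naming rule for promoters. In the experimental direction, a window 76.1 kb from Shisal2b (chr13:104940000-104940999) had 0.966 against 0.258 and remained apart, at 0.75 to 0.987 against 0.146 to 0.499. One whose nearest protein-coding start, that of LOC108167368, lies 230.0 kb away (chr12:20845000-20845999) had 0.653 against 0 and overlapped later, at 0.547 to 0.773 against 0.332 to 0.677. One 15.0 kb from Wnt10a, a Wnt ligand gene, had 0.618 against 0 and also overlapped, at 0.0446 to 0.588 against 0.0208 to 0.917.

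In the control direction the window 43.5 kb from Olig3, a neural transcription factor gene (chr10:19400000-19400999), had 0.257 against 0.823 and overlapped later, at 0.152 to 0.433 against 0.394 to 0.859. A window of 42 cytosines 4.6 kb from Foxf1, a mesenchymal forkhead factor (chr8:121089000-121089999), had 0.184 against 0.732 and stayed apart, at 0.125 to 0.309 against 0.467 to 0.819. One 156.8 kb from Cdyl, a chromodomain protein gene (chr13:35503000-35503999), had 0.291 against 0.787 and stayed apart, at 0.313 to 0.583 against 0.661 to 0.918. Of these 6 windows, 3 thus overlapped between the lines on later days.

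Promoters were measured where at least 5 cytosines were listed in both libraries, which held for 14378 of 33540 genes with a known strand, 11441 of them protein-coding. Most promoters (74.9%) differed by at most 0.05, and 74.4% were under 0.2 in both lines. In all, 697 promoters (4.85%) differed by over 0.2. Of these, 429 promoters (2.98%) were higher by over 0.2 in the experimental line and 268 (1.86%) were higher by over 0.2 in the control line. They lay in 413 and 254 distinct regions. Beyond 0.5 there were 37 (0.257%), namely 20 (0.139%) and 17 (0.118%). A change from under 0.2 to over 0.8 was seen at 1 promoter in each direction. These were Thbd, methylated in the experimental line, and Zfp493, a zinc finger gene, methylated in the control line.

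The promoters that differed had few listed cytosines. They held a median of 8 (experimental higher) and 7 (control higher) cytosines, against 27 over all measured promoters. With 5 to 9 cytosines 10.3% were higher in the experimental and 7.13% in the control line, and with 40 or more the shares were 0.222% and 0.156%. Each cytosine of the promoter lay on the same side at 24 of the 429 and 19 of the 268 promoters. Promoters of lncRNA genes differed more often (5.35% and 4.2%) than those of protein-coding genes (2.26% and 1.26%), and pseudogenes more often still (8.68% and 5.56%). Median beta values were also higher in these classes, 0.129 for lncRNA genes and 0.826 for pseudogenes in the experimental line against 0.019 for protein-coding genes.

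**Figure D3:**
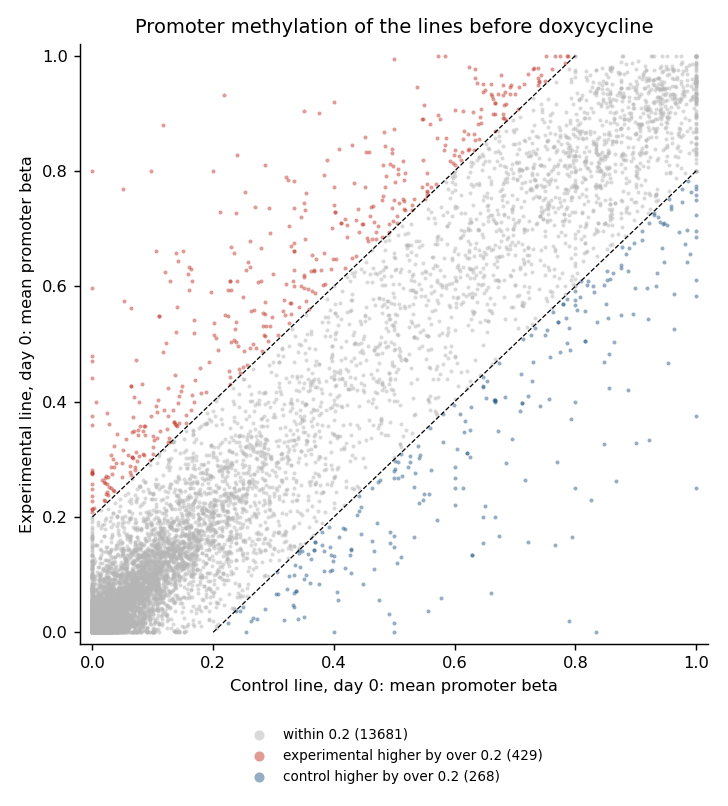
Mean beta value of 14378 promoters at day 0 in the control line (x axis) and the experimental line (y axis), 1 point per promoter, with dashed lines at a difference of 0.2. Most points lie near the origin, with 429 promoters above the upper line (red) and 268 under the lower one (blue).

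The 12 promoters with the largest excess in the experimental line differed by 0.524 to 0.8. Thbd encodes thrombomodulin, the endothelial cofactor of thrombin. Its promoter (chr2:148407689-148409688, 13 cytosines) had a beta value of 0.879 in the experimental and 0.117 in the control line, and all 13 cytosines were higher in the experimental line. On days 5, 9, 12, 16 and 20 it was at 0.867, 0.944, 0.864, 0.906 and 0.983 in the experimental line. In the control line it was at 0.327, 0.142, 0.0719, 0.287 and 0.24, so every experimental library was above every control library.

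The rest of this group rested on 5 to 10 cytosines and mostly did not keep apart. Fut8, which makes the core fucose of N-glycans, had 0.8 against 0 over 5 cytosines at day 0. Both lines were at 0 on day 9, and the control line reached 0.635 on day 5. Rem2, a small GTPase that acts on calcium channels, had 0.932 against 0.219, with 0.492 to 0.826 and 0.395 to 0.598 later. Aire, the thymic autoimmune regulator, had 0.81 against 0.286 at day 0 and then 0 to 0.25 in the experimental line, below the control line in each of the 4 later pairs of libraries with a value. Lgals7, an epithelial galectin, had 0.8 against 0.2 and was higher in the control line on 4 of the 5 later days. Of the remaining 7 entries (Gm46567, 1700116B05Rik, 5830432E09Rik, Gm13007, Gm36767, Gm11560 and Gm42281), 5830432E09Rik stayed apart, at 0.597 against 0 at day 0 and 0.582 to 0.792 against 0.0667 to 0.209 later.

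The 12 with the largest excess in the control line differed by 0.565 to 0.833. The lncRNA gene Gm51701 (promoter chr9:123923648-123925647, 27 cytosines), which lies near the chemokine receptor gene Ccr1, had 0.0194 in the experimental and 0.789 in the control line, with all 27 cytosines higher in the control line. Its later values were 0.0401, 0.0699, 0.0114, 0.013 and 0.0295 in the experimental line and 0.83, 0.785, 0.833, 0.825 and 0.805 in the control line. The values of each line stayed within a narrow range, far from those of the other. The pseudogene Gm10254 had 0.25 against 1 and was at 0.0139 to 0.625 and 0.675 to 1 later. Mrps2, a mitochondrial ribosomal protein gene that shares its start region with 1700007K13Rik, had 0.0683 against 0.661 and kept 0.00714 to 0.287 against 0.307 to 0.621.

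The others in this direction overlapped later or had too few values. Zfp493 had 0 against 0.833 over 6 cytosines, but later values existed for only 2 control libraries, at 0.0833 and 0. Cav3, the muscle caveolin, had 0.23 against 0.825 and later overlapped, with 0.106 to 0.491 and 0.28 to 0.49. Sprn, the shadow of prion protein gene, had 0.157 against 0.722, and Sh3d21, an SH3 domain protein gene, 0.263 against 0.867. LOC115489511, Gm6054, Gm16027, 1700030A11Rik and Gm38538 differed by 0.572 to 0.628.

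Hox genes encode the homeobox factors that set positional identity, and fibroblasts keep a pattern of them from their site of origin. In the HoxA cluster 3 of 9 measured promoters were higher in the experimental line, against 2.98% of all promoters, and none was higher in the control line. Over cytosines listed in all 12 libraries it was 1 of 6, against 2.2% of all promoters. The Hoxa5 difference was then 0.0266 and Hoxa2 had no such cytosine. The median beta value of the 9 was 0.062 in the experimental and 0.144 in the control line, against 0.027 and 0.0254 over all promoters. Hoxa6 (chr6:52208173-52210172, 44 cytosines) was at 0.845 against 0.43, Hoxa5 at 0.515 against 0.284 and Hoxa2 at 0.752 against 0.551. Hoxa10, Hoxa9 and Hoxa11, picked after their values were seen, had differences of -0.142, -0.118 and -0.0729. On days 5 to 20 Hoxa10 was at 0.00255 to 0.0159 against 0.0308 to 0.114 (adjusted p = 0.0223, limma, as described further on). Promoters of 1 cluster are neighbours and not independent of one another.

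On days 5, 9, 12, 16 and 20 the Hoxa6 promoter was at 0.915, 0.879, 0.833, 0.887 and 0.917 in the experimental line and at 0.237, 0.378, 0.151, 0.322 and 0.164 in the control line. Hoxa2 was also without overlap, at 0.701 to 0.959 against 0 to 0.517, but its libraries were not compared over the same cytosines. Hoxa5 overlapped, at 0.254 to 0.554 against 0.276 to 0.59. In the HoxD cluster Hoxd4 was at 0.621 against 0.158, and at 0.617 to 0.741 against 0 to 0.381 later. In the HoxC cluster Hoxc9 was lower in the experimental line, 0.116 against 0.335, and later at 0.104 to 0.184 against 0.171 to 0.323. None of 7 HoxB promoters passed 0.2, and their differences ran from -0.197 to 0.0279.

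Among 183 promoters of developmental transcription factors, 2 were higher in the experimental and 4 in the control line, close to or below the 2.98% and 1.86% of all promoters. Over cytosines listed in all 12 libraries it was 2 and 8 of 154, against 2.2% and 1.52% of all promoters, so the control count was then above that share. Foxi1, a forkhead factor of ionocytes, was at 0.831 against 0.497 and overlapped later, at 0.702 to 0.938 against 0.63 to 0.914. Sox10, the neural crest factor, was at 0.109 against 0.466 and overlapped too, at 0.121 to 0.526 against 0.188 to 0.675. Prrx1, a homeobox gene of limb and craniofacial mesenchyme, was at 0.159 against 0.463, and later at 0.00595 to 0.503 against 0.538 to 0.915 without overlap. Of 245 Zfp genes 2 were higher in the experimental and 3 in the control line, among them Zfp423, an adipocyte commitment factor, at 0.165 against 0.533 over 32 cytosines. On later days Zfp423 stayed at 0.142 to 0.268 against 0.275 to 0.659. Wnt pathway genes had 1 of 41 in each direction, Wnt10b (a ligand) at 0.238 against 0.0266 and Sfrp2 (a secreted inhibitor) at 0.0567 against 0.407, and both overlapped on later days.

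The labelled cell type was checked on promoters of marker genes, which tells methylation and not expression. Of 12 fibroblast markers 9 were measured, with medians of 0.159 (experimental) and 0.2 (control). Among them Vim, Fn1 and Pdgfrb were at 0.0107 or less in both lines. Higher values were found at Fap (0.847 and 1), Pdgfra (0.679 and 0.485), Col1a2 (0.527 and 0.789) and, in the control line, Prrx1 (0.159 and 0.463). The 5 measured germline markers had medians of 0.923 and 0.9, and the 3 pluripotency markers 0.731 and 0.762. For the 5 epithelial markers the medians were 0.207 and 0.228, near those of the fibroblast markers. These promoters therefore did not tell fibroblast from epithelial cells. No blood or endothelial marker of these short lists had a measured promoter. Among 38 genes of fibroblast matrix and mesenchyme 2 promoters were higher in each line, against 2.98% and 1.86% of all promoters. Col1a2, a chain of type I collagen, had 0.527 against 0.789 and overlapped later. Mmp2, gelatinase A, had 0.492 against 0.272, with 0.295 to 0.5 against 0.136 to 0.221 later. In the collagen list as a whole, 3 of 24 were higher in the experimental line and 1 in the control line, against 2.98% and 1.86% of all promoters. The median beta value of the 24 was 0.157 in the experimental line, against 0.027 over all promoters. Col9a2, a cartilage collagen, had 0.259 against 0.0206 and overlapped later, at 0.143 to 0.211 against 0.0218 to 0.226. Col11a2, also a collagen of cartilage, had 0.678 against 0.456 and later 0.648 to 0.69 against 0.129 to 0.383.

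Genes of blood and endothelium had 3 of 14 promoters higher in the experimental and 2 in the control line, against 2.98% and 1.86% of all promoters. Over cytosines listed in all 12 libraries these counts were 1 and 0 of 8, against 2.2% and 1.52% of all promoters. Beside Thbd, these included Zap70, a T cell kinase, at 0.843 against 0.485, and Vav1, a haematopoietic exchange factor, at 0.276 against 0.535. Both overlapped later. Keratins had 3 of 19 higher and 1 lower in the experimental line, against 2.98% and 1.86% of all promoters. Their differences lay between -0.211 and 0.262. Over cytosines listed in all 12 libraries the counts were 1 and 0 of 11, against 2.2% and 1.52%. Among 117 microRNA gene promoters, 11 were higher in the experimental and 5 in the control line, against 2.98% and 1.86% of all promoters. Over cytosines listed in all 12 libraries it was 4 and 2 of 83, against 2.2% and 1.52%. The largest was Mir124a-1, one of the genes of the neuronal miR-124, at 0.0167 against 0.5. Of the 117, the median difference was 0.00041, close to the 0.00158 over all promoters. All of these lists were more methylated than promoters at large. Their median beta values in the experimental line were 0.673 (blood and endothelium), 0.814 (keratins) and 0.384 (microRNA genes), against 0.027 over all promoters. The part of methylation level in their counts was not tested.

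Imprinted genes are methylated on 1 parental copy at their control regions, so intermediate values are usual. Of 32 measured, 3 were higher in each line, against 2.98% and 1.86% of all promoters. The median beta value of the 32 was 0.38 in the experimental line, against 0.027 over all promoters. Its part in the counts was not tested. Over cytosines listed in all 12 libraries 7 of 23 were higher in the experimental and 2 in the control line. Of all promoters it was 2.2% and 1.52%. Igf2r, the receptor that clears IGF2, was at 0.392 against 0.741 over 48 cytosines at day 0, and later at 0.382, 0.255, 0.497, 0.455 and 0.322 against 0.493, 0.634, 0.541, 0.086 and 0.465. Gnas, the stimulatory G protein alpha subunit locus, was at 0.525 against 0.236 and later at 0.338 to 0.834 against 0.113 to 1. At both loci the libraries of either line varied widely. Snurf, picked after its values were seen, is encoded at the imprinted Snrpn locus and had 0.661 against 0.149, with 0.0909 to 0.817 in the experimental line and 0.128 to 0.631 in the control line later.

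The Sdhc promoter (chr1:171150141-171152140, 24 cytosines) was at 0.0152 in the experimental and 0.00298 in the control line, and no library exceeded 0.0652. None of 38 promoters of SDH and the TCA cycle passed 0.2, where the share over all promoters is 4.85%. Their median beta values were only 0.00937 and 0.0047 (experimental and control), against 0.027 and 0.0254 over all promoters. Whether promoters of like methylation differ as rarely was not tested. In glycolysis and hypoxia genes 1 of 33 was higher in each line, close to the 2.98% and 1.86% of all promoters. Angptl4, a secreted lipase inhibitor that responds to hypoxia, was at 0.293 against 0.685 and stayed at 0.122 to 0.438 against 0.56 to 0.752. Among 24 writers, erasers and cofactors of DNA methylation 1 was past 0.2, where the share over all promoters is 4.85%. This was Uhrf1, which guides maintenance methylation, at 0.283 against 0.501, and it overlapped later. No promoter passed 0.2 among 68 ribosomal protein genes, 20 replication-dependent histone genes, 23 interferon response genes, 23 chromaffin and secretory genes, 20 FGF ligand and receptor genes and 17 ephrin and Eph receptor genes. Median beta values were low in the ribosomal (0.00675 and 0.00725) and histone lists (0.0136 and 0). The part of methylation level in these counts was not tested.

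Pairs of libraries from different days of 1 line show how far libraries vary without a change of line. Over the 11314 promoters with at least 5 cytosines listed in all 12 libraries, 3.73% differed by over 0.2 between the lines at day 0. The experimental day 0 library differed from the later experimental libraries at 0.972% to 2.35% of promoters, under the day 0 difference between the lines in all 5 pairs. The control day 0 library differed from the later control libraries at 1.94% to 4.95%, and at 1.94% to 3.39% without day 12, the smallest library. Over all 15 pairs within the experimental line the share ran from 0.972% to 3.95% (median 2.17%), with days 9 and 20 the highest. Within the control line it ran from 1.03% to 4.95% (median 2.31%). Between the lines on the same later day the share was 2.92% to 5.33%. For single cytosines the ranges were closer. The day 0 pair of the lines differed at 25.5% of them, the experimental day 0 library from its later ones at 16.2% to 23.2%, and the control day 0 library from its later ones at 22.4% to 26.9%. The later libraries are on doxycycline, so these pairs also hold whatever changed with treatment and time.

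**Figure D4:**
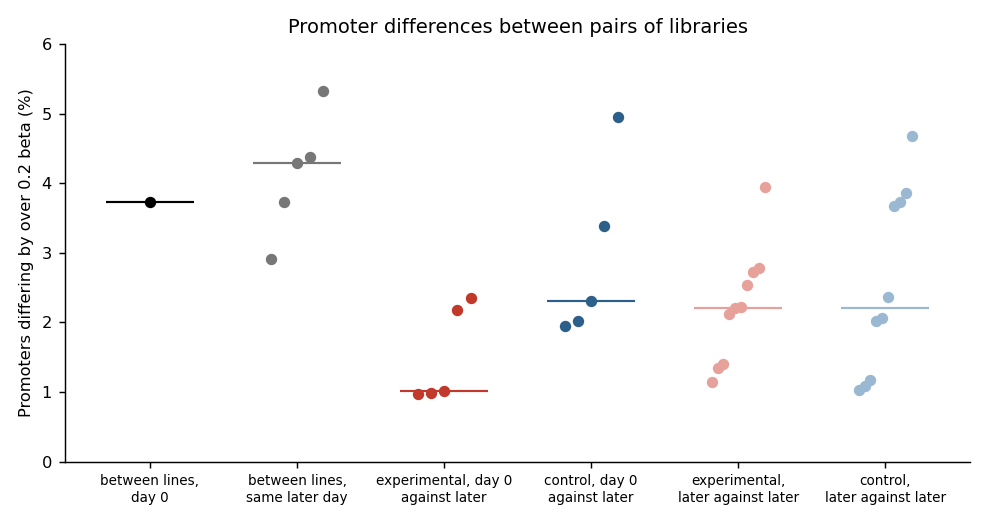
Percent of 11314 promoters differing by over 0.2 between the libraries of a pair, 1 point per pair, with lines at the medians. The day 0 pair of the lines (3.73%) lies above every pair of the experimental day 0 library with a later one (at most 2.35%). It lies inside the range of the control day 0 pairs (1.94% to 4.95%). Pairs of later experimental libraries reach 3.95%.

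Which day 0 differences were also present in libraries that did not define them was asked on days 5 to 20, with limma on promoter M-values (the log2 ratio of methylated to unmethylated fraction), 5 libraries per line, at an adjusted p of 0.05 over all 11314 promoters. It called 273 promoters (2.41%), of which 196 (1.73%) were higher in the experimental and 77 (0.681%) higher in the control line. Of the 210 of these 11314 promoters that were higher in the experimental line at day 0, 41 (19.5%) were among the former. Of the 99 that were higher in the control line at day 0, 12 (12.1%) were among the latter. None passed in the opposite direction. Neighbouring promoters count separately here, as with Iqcj and Iqschfp among the 41, whose values were equal in each library. The libraries of a line are days of 1 culture, so these p-values measure only the spread between them. The values by day printed for single promoters use every promoter cytosine that a library lists. The fit and its overlap counts use only cytosines listed in all 12 libraries. The 2 can differ, and Mmp2, apart by the printed values, overlapped over the cytosines of the fit. No overlap between the libraries of the lines was seen, in the day 0 direction, at 58 of the 210 (27.6%, against 4.53% of all 11314) and at 15 of the 99 (15.2%, against 1.38%). The count of 53 depended on the libraries used and fell to between 25 and 35 without experimental day 5, 12 or 16 or control day 5, 9 or 20.

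Read from the other side, many promoters that differed on doxycycline leaned the same way beforehand. Of the 196 promoters higher in the experimental line on days 5 to 20, 167 (85.2%) were also higher at day 0, against 56.4% of all 11314, with a median day 0 difference of 0.0679. Of the 77 higher in the control line, 72 (93.5%) were so at day 0, against 40% of all, with a median of -0.0783. A day 0 difference above 0.2 was present at 20.9% and 15.6% of them, against 1.86% and 0.875% of all fitted promoters. By the count of days, which needs no model, 131 of 384 promoters higher at day 0 in the experimental line (34.1%) were higher on each of the 5 later days, against 11.7% of all promoters. In the control direction it was 54 of 229 (23.6%), against 3.5%.

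Hoxa6 and Thbd, from the HoxA and the blood and endothelial list, were among the 41. For Hoxa6 the M-value difference was 4.05 ± 0.33 (SE; adjusted p = 0.000582, limma), and for Thbd 6.12 ± 0.77 (adjusted p = 0.00791, limma). Col11a2, Mmp2 and Cyp26c1, a retinoic acid hydroxylase, also passed, with adjusted p of 0.0223, 0.039 and 0.0278 (limma). These calls were lost under 3 alternatives for Col11a2, 9 for Mmp2 and 10 for Cyp26c1, left-out libraries included. Gm51701 had the lowest adjusted p of all 11314 promoters, 2.93e-05, with a difference of -6.15 ± 0.30 (SE, limma). Hoxd4, Zfp423, Angptl4 and Prrx1 did not pass, with adjusted p of 0.0676, 0.0692, 0.0689 and 0.129 (limma). Without control day 12, the smallest library, Hoxd4 and Zfp423 passed, at adjusted p of 0.00218 and 0.0153 (limma). Hoxd4 also passed with an M-value offset of 0.05 (0.0199) and on beta values (0.0037), and Angptl4 without experimental day 9 (0.0496). Hoxa2, Mrps2 and 5830432E09Rik had too few cytosines listed in all libraries for the fit.

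Further promoters among the 53 were taken from the list after their values were seen. Tfap2a, a neural crest and epidermal transcription factor (35 cytosines), was at 0.581 against 0.249 at day 0 and at 0.492 to 0.727 against 0.159 to 0.351 later (adjusted p = 0.0209, limma). Rab3a, a synaptic vesicle GTPase, was at 0.281 against 0.0704, then 0.317 to 0.396 against 0.0923 to 0.136 (adjusted p = 0.000465, limma). Over the 12 cytosines used in its fit the later means were 0.529 and 0.108. Sh2b3, an adaptor in cytokine signalling, was at 0.468 against 0.194, then 0.532 to 0.646 against 0.145 to 0.266 (adjusted p = 0.00135, limma). Col9a3, a cartilage collagen, was at 0.602 against 0.382 at day 0, then 0.478 to 0.637 against 0.28 to 0.356 (adjusted p = 0.0133, limma).

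In the control direction Sult2b1, a cholesterol sulfotransferase, was at 0.0325 against 0.491 and later at 0.0643 to 0.207 against 0.276 to 0.405. The lncRNA gene Gm3134 was at 0.155 against 0.648 and later at 0.0753 to 0.21 against 0.376 to 0.56. Mir196a-1, a microRNA gene inside a Hox cluster, was at 0.379 against 0.609 and later at 0.211 to 0.409 against 0.452 to 0.641. All 3 passed in the limma fit, with adjusted p of 0.0291, 0.00581 and 0.0276, and none overlapped between the lines.

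**Figure D5:**
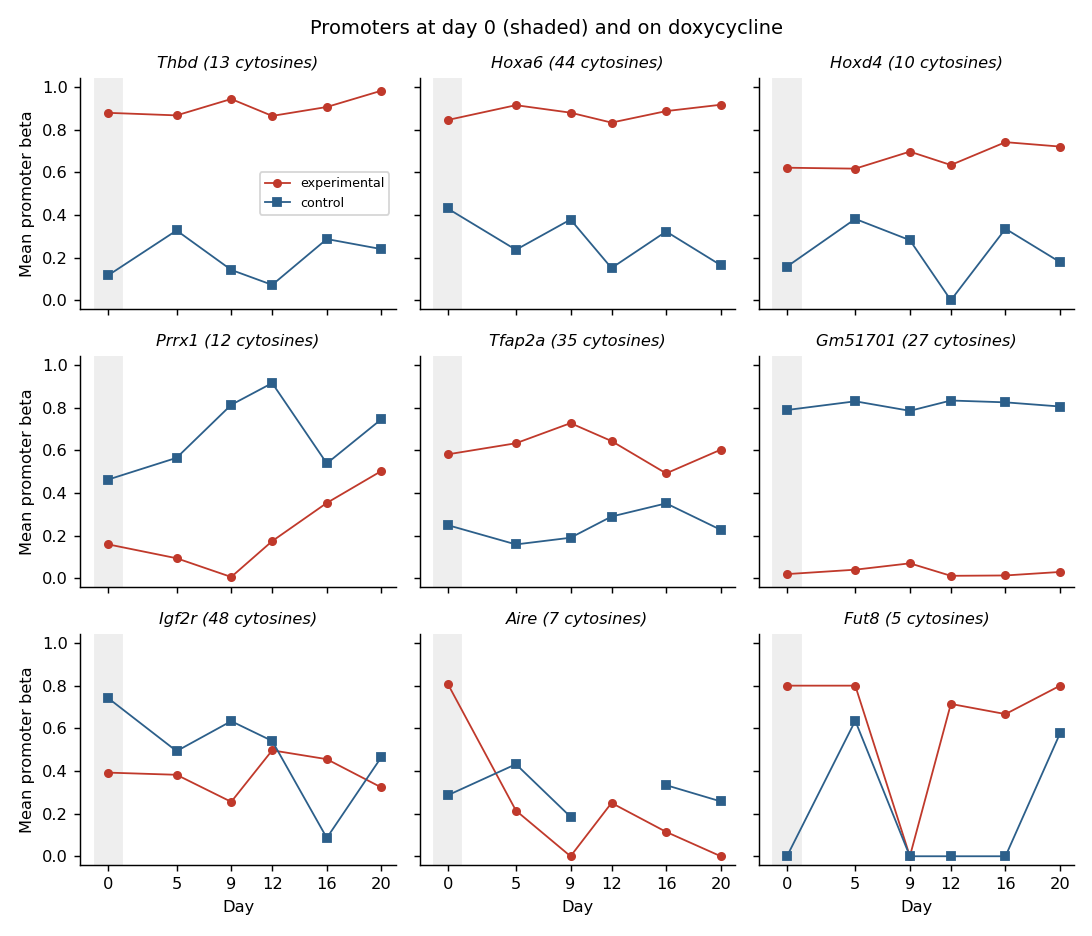
Mean promoter beta value (y axis) by day (x axis; day 0 shaded) in the experimental (red circles) and control (blue squares) line for 9 promoters, 1 library per point. Thbd, Hoxa6, Hoxd4, Prrx1, Tfap2a and Gm51701 kept the day 0 order without overlap on days 5 to 20, while Igf2r, Aire and Fut8 did not. The 9 were chosen with their values known, and Hoxd4 and Prrx1 did not pass in the limma fit. Among the fitted day 0 differences, 27.6% (experimental higher) and 15.2% (control higher) had no overlap in the day 0 direction.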

How the data were processed

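RRBS was run on 12 libraries, and the day 0 library of each line is described here. Reads were mapped by the authors with Bismark on mm10 (its version is not given in the sources used here), and they deposited the percent of reads called methylated at each CpG cytosine, without counts. Percent values were divided by 100. No coverage filter was possible, no intervals were computed, and the filters that the study applied afterwards are not part of these values. Each cytosine of a CpG was kept.

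Promoters ran from 1500 bp before to 500 bp after the outermost RefSeq start (GRCm38.p6), with 5 or more cytosines listed in both day 0 libraries. Strand came from the RefSeq promoter table, or by symbol from GENCODE M1, and was known for 96.8% of protein-coding genes. All 154442 listed cytosines that fell in RefSeq promoter sequence were in a CpG. Exons and CpG islands were not used here.

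The members, gene lists and the difference of 0.2 were chosen with earlier results of these data known. The genes named are the 12 promoters with the largest difference in each direction (neighbours sharing most cytosines count once), up to 3 members per gene list past 0.2, and Sdhc. Chromosomes, bins and compartments are named by the 3 largest differences. Not every list member that the rule allows is named, and promoters named outside it are marked as picked after their values were seen.

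Days 5 to 20 were compared with limma 3.58.1 in R 4.3.3 on M-values with an offset of 0.01, without day 0, over cytosines listed in all 12 libraries, with Benjamini-Hochberg adjustment. This step was tested on simulated data. Same-day libraries were not treated as pairs. Other offsets, scales, cytosine minimums, windows and left-out libraries were tried as alternatives. Tables were made with Python 3.11.15, pandas 2.3.3 and numpy 2.4.6.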

Additional observations from a re-analysis of the deposited data

Results flagged for a closer look

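The sex chromosomes lay outside the comparison and held a signal that separated the lines. The experimental day 0 library listed 1553 chromosome Y cytosines against 166 in the control library, and the median chromosome X promoter beta value was 0.374 in the control line at day 0 against 0.0153 in the experimental line.

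Single libraries stood apart from the others of their line on days 5 to 20 at 3 of the named promoters. The Fut8 promoter was at 0 in the experimental line on day 9, with the other 4 days at 0.667 to 0.8. The Mrps2 promoter and that of 1700007K13Rik, which share cytosines, were both at 0.621 in the control line on day 12, with the other days at 0.307 to 0.378 and 0.269 to 0.331. The check covered 41 sets of 5 libraries, and chance alone marks about 1 in 20.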

How the results depend on the processing

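The direction of the autosomal mean difference and of the 4 compartment differences held under the alternatives tried for them. The mean difference over autosomal cytosines was 0.00811 when 1 kb windows weighed equally. That in gene bodies was 0.00685 over cytosines listed in all 12 libraries, and that over 50 kb from a start was 0.00138 with both strands averaged. The share of cytosines differing was 19% with both strands averaged and 8.58% at a difference of 0.5. Counts of promoters depended strongly on how many cytosines stood behind a value. With higher experimental values there were 249 (2.2%) over cytosines listed in all 12 libraries, 54 (1.06%) with both strands averaged, 698 (4.34%) with 3 or more cytosines, 170 (1.43%) with 10 or more, 700 (4.87%) with medians, 1094 (7.61%) at a difference of 0.1 and 132 (0.918%) at 0.3. With higher control values there were 172 (1.52%) over cytosines listed in all 12 libraries, 42 (0.828%) with both strands averaged, 435 (2.71%) with 3 or more cytosines, 89 (0.75%) with 10 or more, 449 (3.12%) with medians, 822 (5.72%) at a difference of 0.1 and 98 (0.682%) at 0.3. Listed genes past 0.2 numbered 30 and 17 with 10 or more cytosines (experimental and control higher), against 56 and 34. Of 11314 promoters, limma called 273 on days 5 to 20, 169 with an offset of 0.001 and 94 to 261 with 1 library left out (94 to 146 without experimental day 5, 12 or 16 or control day 9, 16 or 20). The count also past 0.2 at day 0 in the same direction was 53, then 32 with an offset of 0.001, 29 with 10 or more cytosines and 25 to 59 with 1 library left out, where 1 promoter passed in the opposite direction without control day 20. With the day as a replicate block the counts were 10 and 4, and the adjusted p was 0.0545 for Thbd, 0.0818 for Col11a2, 0.156 for Mmp2 and 0.0972 for Cyp26c1 (limma). The days did not pair the libraries, since same-day deviations correlated at -0.0246 to 0.0096 and no library correlated best with its own day. Counting each library's own cytosines, an alternative chosen after seeing the data, gave 234 and 52. The depth behind single values is unknown.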
